A study of Glycine max with 12 samples.

Results

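In soybean (Glycine max) seeds, 42 genes stood apart from the wild type by 8-fold or more in each of 3 overexpressor genotypes, 21 of them higher and 21 lower, out of 47095 genes counted. They were chosen by these measured values. Each gene's count was scaled to the total of its library, as counts per 1000000 (CPM), group means were raised by 0.05 CPM, and all 3 overexpressor means had to lie 8-fold or more on the same side of the wild-type mean. The highest group mean had to reach 0.5 CPM, and no overexpressor library could overlap a wild-type library. Every difference from the wild type given for these 42 genes is therefore a description, without a test. The same rule applied to all genes took 0.0446% of them as higher and 0.0446% as lower.

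RNA was sequenced from seeds at a stage labelled H3, in 3 libraries of the wild type, cultivar Jack, and 3 libraries each of transgenic soybean overexpressing GmZF351, GmZF392 or GmNFYA. Each overexpressor's 3 libraries carry 1 code in their titles, so each genotype may be a single transgenic line. An effect of the overexpressed gene and any other difference between these lines and the Jack plants cannot be told apart. The promoter of the transgenes and the number of plants per library are not given in the sources used here, so the spread between libraries may be technical.

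GmZF351 and GmZF392 encode zinc finger proteins and GmNFYA encodes a subunit of nuclear factor Y, a complex that binds CCAAT boxes in promoters. All 3 are known as regulators that favour oil accumulation in soybean seeds. The 42 genes were selected for large differences, many of them between a low level and no fragment at all. Of the 42, 24 could be paired by position with a RefSeq gene, and 2 of those carry a name, CRK48 and CRK62. Both belong to the cysteine-rich receptor-like kinases, plant membrane proteins known for roles in defence and stress signalling. The other 40 have no annotated role in the sources used here, so they are given by identifier, position and value.

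Libraries held 17809547 to 22652420 counted fragments, and 1 fragment was worth 0.0441 to 0.0561 CPM. Each overexpressed gene was highest in its own genotype. GmZF351 stood at 19 ± 2.35 CPM in the wild type and 905 ± 108 CPM in its overexpressor (SD, n = 3), GmZF392 at 71.4 ± 4.1 and 664 ± 121 CPM, and GmNFYA at 42.5 ± 3.18 and 307 ± 22.8 CPM. GmZF351 also stood at 40.7 ± 1.44 CPM in the GmZF392 and 27 ± 2.49 CPM in the GmNFYA overexpressor. GmZF392 stood at 83.2 ± 12.8 CPM in the GmZF351 and 92.9 ± 16.4 CPM in the GmNFYA overexpressor. GmNFYA stood at 39.7 ± 6 CPM in the GmZF351 and 46.7 ± 4.8 CPM in the GmZF392 overexpressor. The tissue label was read against 13 seed storage and maturation genes found of 16 listed, and none was at 0. Their summed level was 4172 to 4578 CPM in the wild type, 7176 to 8469 CPM in the GmZF351 overexpressor, 8630 to 9715 CPM in the GmZF392 overexpressor and 6767 to 7123 CPM in the GmNFYA overexpressor. For 6 of 7 seed coat genes the sum was 737 to 960, 471 to 545, 725 to 878 and 668 to 755 CPM in the same order, and for 5 of 9 genes of vegetative tissue and photosynthesis it was 3282 to 3362, 2453 to 2529, 2547 to 2861 and 2156 to 2486 CPM. None of these genes was at 0. The sums do not show single genes. LAR1, 1 of the seed coat genes, is named because it lies beside the 8-fold threshold. It stood at 182, 20.6, 25.4 and 21.6 CPM in the same order. LAR1 does not stand for its list, whose sums in the GmZF392 and GmNFYA overexpressors overlapped those of the wild type. The other seed coat genes are not given singly here. The part of shifts in these lists in the differences below was not tested, and in whole seeds fewer cells of a type and less RNA per cell cannot be told apart.

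The 21 higher genes were absent or low in the wild type and at low or moderate levels in all 9 overexpressor libraries. Their highest wild-type mean was 1.05 CPM, for Glyma.13G027800. Of these genes, 8 had no fragment in any wild-type library, which hold 59824844 fragments together, 7 had 1 to 3 fragments over the 3 libraries, and 6 had more. The median of their highest group mean was 3.2 CPM, against 13.4 CPM over all 34252 genes tested. Per kilobase of exon the same medians were 1.75 and 6.49 CPM per kb. On the scale of the mean plus 0.05 CPM, the smallest of a gene's 3 fold differences ran from 8.3 to 188 with a median of 12.5, and 10 of the 21 reached 16-fold in all 3 overexpressors. For the 8 genes without a wild-type fragment, the added 0.05 CPM sets this value. For those with 1 to 3 fragments it is a large part of the wild-type term. With 0.5 CPM added instead, 5 higher genes met the rule.

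Glyma.13G027800 (chromosome 13, 5857624 to 5905747, plus strand, paired with LOC100781560) had the highest level of the 21 both in CPM and per kilobase. It was counted at 1.3, 0.618 and 1.23 CPM in the wild-type libraries, 55.7, 40.5 and 59 CPM with GmZF351 overexpressed, 59.1, 65.6 and 58.5 CPM in the GmZF392 overexpressor and 64.1, 42.6 and 45.4 CPM in the GmNFYA overexpressor. All 9 overexpressor libraries lay far above the wild type and overlapped one another. The means were 47.2-fold, 55.7-fold and 46.2-fold above the wild type on the scale of the mean plus 0.05 CPM. Glyma.13G027600 lies 24.7 kb before it on the same strand (chromosome 13, 5816014 to 5832962). It had no fragment in the wild type and stood at 12.5, 0.426 and 4.43 CPM, at 7.77, 6.63 and 1.13 CPM and at 15.5, 8.7 and 4.94 CPM in the overexpressors of GmZF351, GmZF392 and GmNFYA. Its levels spread 36.4-fold among the overexpressor libraries, the widest spread of the 21 genes. Pooled over the 9 libraries, its level was 139-fold that of 3 fragments over the wild-type libraries. This ratio, like those of its kind below, allows for counting error only. It leaves out the spread between libraries and is no lower bound for a single library.

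Glyma.08G261500 (chromosome 8, 25796479 to 25798111, plus strand, LOC102667919), a gene of 1 exon, had 1 fragment in the wild type, in library 3. It stood at 12.2, 13.6 and 15.7 CPM, 15.4, 14.9 and 21.7 CPM, and 13.3, 14.1 and 11.1 CPM in the overexpressors of GmZF351, GmZF392 and GmNFYA. Its smallest fold difference, 188, was the largest of the 21, but its wild-type mean of 0.0186 CPM was below the added 0.05 CPM, which mostly sets this value. The GmZF351 libraries overlapped both other overexpressors, while those of GmZF392 lay above those of GmNFYA. Glyma.16G211400 (chromosome 16, 37241525 to 37256386, plus strand, LOC100814962) also had 1 wild-type fragment. Its overexpressor values were 10.6, 11.1 and 10 CPM, 14.2, 15.9 and 12.1 CPM, and 16, 9.92 and 11.2 CPM. With 8022 bases of exon it is the longest of the 42 genes, and its level per kilobase was below that of Glyma.08G261500 in each overexpressor. Glyma.08G273000 (chromosome 8, 35178545 to 35185784, plus strand, LOC100776078) had no wild-type fragment and stood at 5.07, 5.96 and 6.35 CPM, 6.76, 6.57 and 7.21 CPM, and 7.04, 4.71 and 6.54 CPM. Its pooled overexpressor level was 124-fold that of 3 fragments over the wild-type libraries.

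Glyma.03G098600 (chromosome 3, 29868765 to 29872900, minus strand, LOC100811802) was present at a low level in the wild type, at 0.104, 0.265 and 0.279 CPM. In the overexpressors it stood at 6.41, 9.2 and 7.63 CPM, 6.11, 6.74 and 8.51 CPM, and 5.16, 4.66 and 5.09 CPM. The GmNFYA libraries were the lowest here and did not overlap the GmZF351 or GmZF392 libraries. Glyma.13G066100 (chromosome 13, 15666311 to 15668077, minus strand, LOC100813126) had 1 wild-type fragment and stood at 2.73, 3.09 and 1.6 CPM, 3.03, 2.36 and 2.31 CPM, and 3.87, 4.5 and 5.82 CPM. There the GmNFYA libraries were the highest. Glyma.18G103500 (chromosome 18, 11164413 to 11166228, plus strand, LOC100803418) stood at 0.156, 0.309 and 0.112 CPM in the wild type, and at 3.97, 3.25 and 3.79 CPM, 2.07, 2.98 and 2.1 CPM, and 2.31, 4.25 and 3.05 CPM in the overexpressors. Glyma.18G069802 (chromosome 18, 6503225 to 6507566, minus strand) had no wild-type fragment and stood at 3.01, 2.61 and 4.32 CPM, 2.93, 2.58 and 1.62 CPM, and 2.53, 2.2 and 2.28 CPM. For Glyma.18G103500 the GmZF351 libraries lay above the GmZF392 libraries, and for Glyma.18G069802 they lay above the GmNFYA libraries. The other genotype pairs overlapped.

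The 2 named kinase genes were weakly expressed. CRK48 (Glyma.16G202400, chromosome 16, 36599820 to 36604611, plus strand) had 2 fragments in the wild type, both in library 1. It stood at 1.39, 0.745 and 1.71 CPM, 1.67, 1.24 and 1.67 CPM, and 1.72, 0.819 and 0.485 CPM in the overexpressors of GmZF351, GmZF392 and GmNFYA. CRK62 (Glyma.18G237900, chromosome 18, 52930572 to 52934923, minus strand) had 3 wild-type fragments and stood at 1.34, 0.851 and 1.17 CPM, 1.16, 1.29 and 1.02 CPM, and 1.72, 0.767 and 1.11 CPM. The genotypes overlapped for both kinases. The recorded command gives no option for fragments that align to several related kinase genes, so the levels of both are uncertain.

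**Figure D1:**
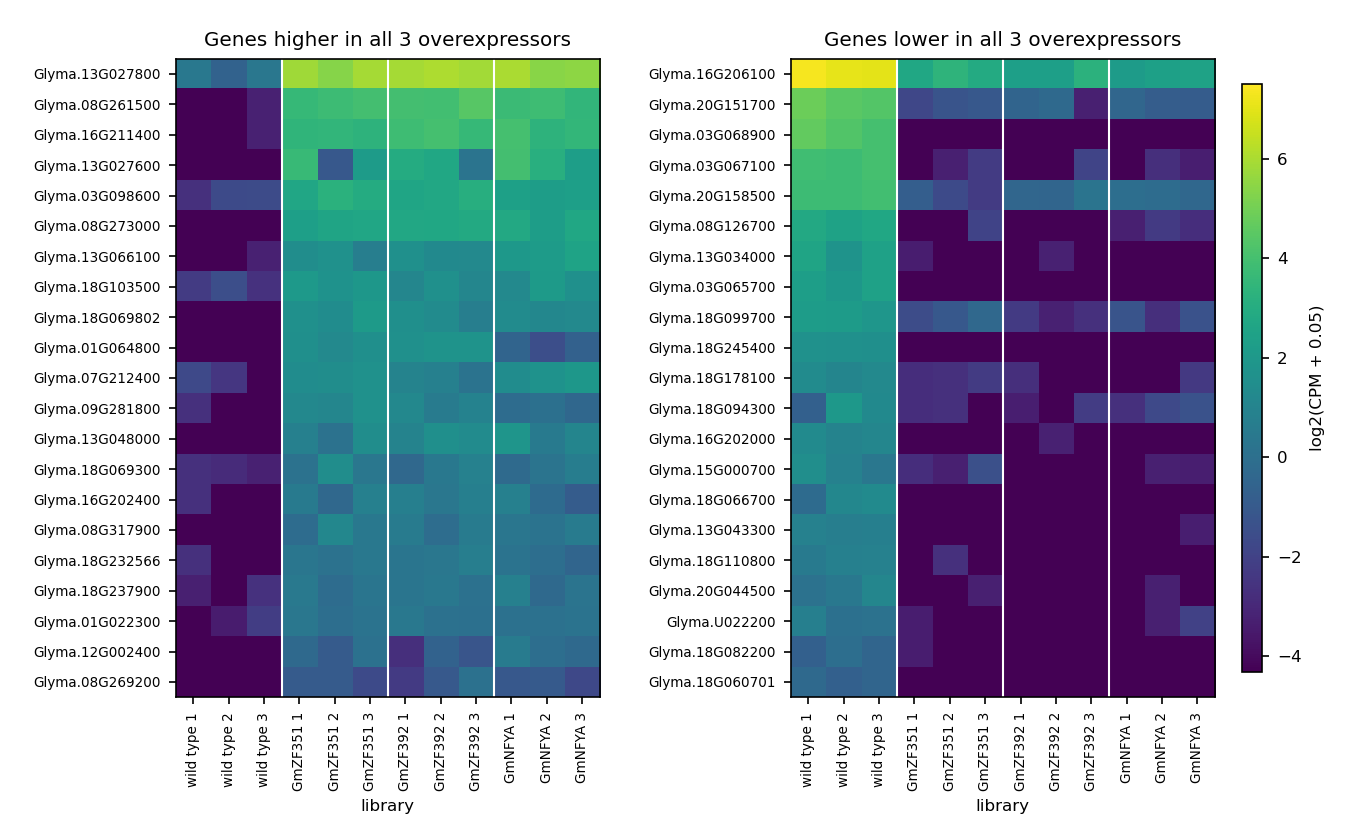
Level of each of the 42 genes (rows) in each of the 12 libraries (columns) as log2(CPM + 0.05), with the 21 genes higher in all 3 overexpressors on the left and the 21 lower on the right. White lines separate the genotypes; the 3 wild-type columns differ from the 9 overexpressor columns in every row, as the selection required.

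The 21 lower genes were present in the wild type and, except for Glyma.16G206100 and Glyma.20G158500, stood below 1 CPM in every overexpressor library. Of these genes, 5 had no fragment in any of the 9 overexpressor libraries, which hold 173440329 fragments together, 6 had 1 to 3 fragments and 10 had more. The median wild-type mean was 2.31 CPM. On the scale of the mean plus 0.05 CPM, the smallest of the 3 fold differences ran from 8.03 to 403 with a median of 22.3. For genes without an overexpressor fragment, Glyma.03G068900 at 403 among them, the added 0.05 CPM sets this value. For those with 1 to 3 fragments it makes up most of the overexpressor term. With 0.05 CPM added, 14 of the 21 reached 16-fold throughout. With 0.5 CPM added instead, 8 lower genes met the 8-fold rule.

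Glyma.16G206100 (chromosome 16, 36874844 to 36875842, minus strand, LOC100305872) had the highest level of all 42 genes, in CPM and per kilobase. It was counted at 161, 132 and 128 CPM in the wild type, 6.5, 10.3 and 7.52 CPM with GmZF351 overexpressed, 5, 5.05 and 9.48 CPM with GmZF392 overexpressed and 4.41, 5.22 and 5.62 CPM in the GmNFYA overexpressor. The gene thus kept a clear signal in all overexpressor libraries, far below the wild type. The wild-type mean was 17.2-fold, 21.5-fold and 27.4-fold above the 3 overexpressor means on the scale of the mean plus 0.05 CPM.

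On chromosome 3 lay 3 lower genes with little or no overexpressor signal. Glyma.03G068900 (14322911 to 14324969, minus strand, LOC100527900) stood at 24.9, 19.5 and 16 CPM in the wild type and had no fragment in any overexpressor library. Its pooled wild-type level was 1170-fold that of 3 fragments over the 9 libraries, which allows for counting error only. Glyma.03G065700 (12422719 to 12426479, plus strand, LOC100780785), a gene of 1 exon, stood at 4.93, 3.8 and 5.36 CPM in the wild type and also had none. The same ratio was 268-fold for this gene. Glyma.03G067100 (15144577 to 15149095, minus strand, LOC100793181) stood at 14.4, 13.7 and 16.2 CPM in the wild type and had 11 fragments over the 9 overexpressor libraries, with 0 to 0.215 CPM in each. All 3 of these chromosome 3 genes had wild-type values many times the highest overexpressor value.

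On chromosome 20, Glyma.20G151700 (39031244 to 39033081, plus strand, LOC100818597) stood at 28.5, 22.5 and 20 CPM in the wild type. Its overexpressor values were 0.239, 0.372 and 0.427 CPM, 0.656, 0.786 and 0.0538 CPM, and 0.699, 0.512 and 0.485 CPM. Glyma.20G158500 (39680963 to 39684002, plus strand, LOC100791989) stood at 13.8, 13.6 and 15 CPM in the wild type, and at 0.526, 0.266 and 0.16 CPM, 0.707, 0.674 and 1.13 CPM, and 0.914, 0.87 and 0.727 CPM in the overexpressors. For Glyma.20G158500 the GmZF351 libraries were the lowest and did not overlap the GmZF392 or GmNFYA libraries.

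Of the remaining lower genes, those of higher level are given next. Glyma.08G126700 (chromosome 8, 9762474 to 9772469, minus strand, LOC100810824), a gene of 12 exons, stood at 6.9, 5.61 and 6.48 CPM in the wild type and had 10 fragments in all over the overexpressor libraries, none of them in the GmZF392 overexpressor. Glyma.13G034000 (chromosome 13, 9718917 to 9719693, minus strand) stood at 5.86, 3.27 and 5.31 CPM and had 2 fragments. Glyma.18G099700 (chromosome 18, 10384936 to 10391821, minus strand, LOC100796680) stood at 4.62, 4.46 and 3.69 CPM in the wild type and at 0.287, 0.426 and 0.747 CPM, 0.151, 0.0561 and 0.108 CPM, and 0.376, 0.102 and 0.339 CPM in the overexpressors. It was closest to the threshold of the lower genes, at 8.03-fold in the GmZF351 overexpressor. Glyma.18G245400 (chromosome 18, 53582260 to 53584148, minus strand, LOC100799163) stood at 3.06, 2.96 and 2.9 CPM in the wild type and had no fragment in any overexpressor library. Its pooled wild-type level was 172-fold that of 3 fragments over those libraries. Glyma.18G066700 and Glyma.18G060701, also without an overexpressor fragment, stood at 1.82 ± 0.867 and 0.674 ± 0.102 CPM in the wild type (SD, n = 3).

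**Figure D2:**
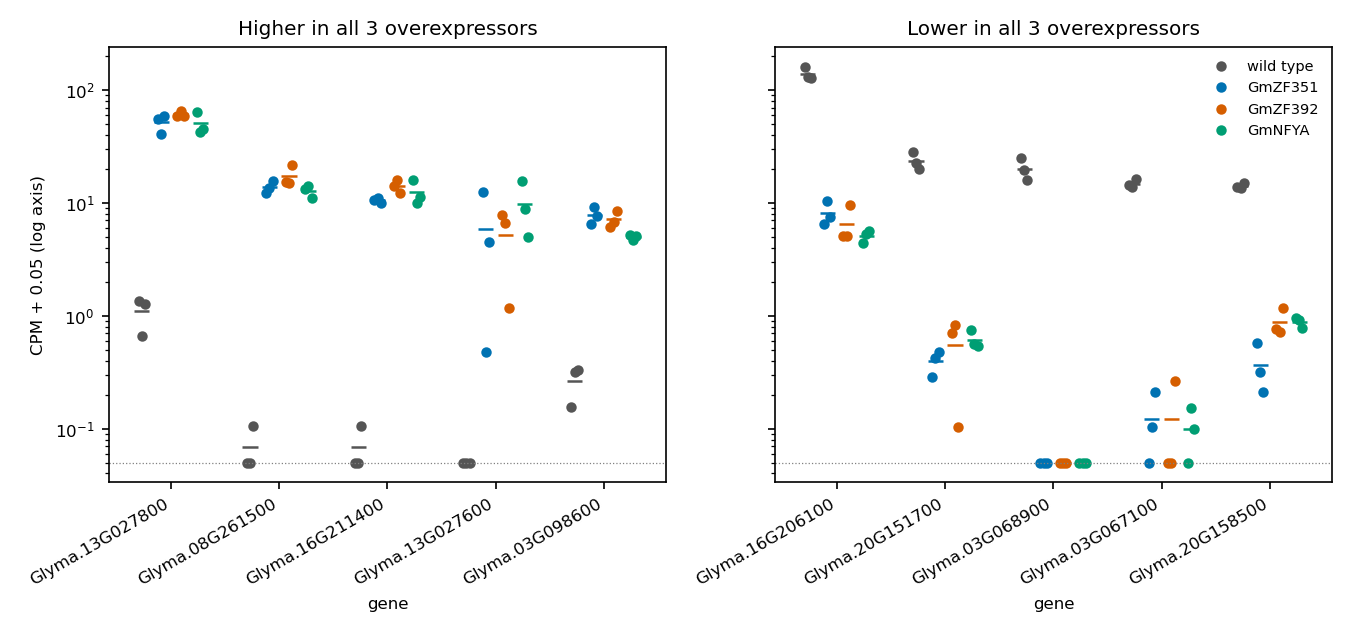
Values in every library for the 5 genes with the highest group mean in each direction, as CPM + 0.05 on a log axis; points are libraries, short lines are genotype means, and the dotted line marks 0 CPM. Wild-type points lie apart from all overexpressor points, and Glyma.03G068900 lies on the line of 0 CPM in all 9 overexpressor libraries.

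At the 8-fold threshold, the genes just inside were Glyma.12G002400 (smallest fold 8.3), Glyma.08G269200 (8.55) and Glyma.01G022300 (9.01) among the higher genes, and Glyma.18G099700 (8.03), Glyma.18G094300 (8.17) and Glyma.U022200 (9.73) among the lower. Just outside were Glyma.01G043951 (7.69), Glyma.18G226500 (7.58) and Glyma.01G043700 (6.85) on the higher side. On the lower side were Glyma.18G090800 (7.32), LAR1 (7.15) and Glyma.18G286900 (6.42). LAR1 encodes leucoanthocyanidin reductase, an enzyme of proanthocyanidin synthesis in the seed coat, and stood at 182, 20.6, 25.4 and 21.6 CPM in the wild type and the GmZF351, GmZF392 and GmNFYA overexpressors. By level, Glyma.08G269200 was the lowest kept, at 0.541 CPM, and Glyma.17G156800 the highest left out, at 0.488 CPM. Of single comparisons under the same rule, 0.0658% of genes were higher and 0.0743% lower in the GmZF351 overexpressor, 0.161% and 0.0679% in the GmZF392 overexpressor, and 0.0871% and 0.0722% in the GmNFYA overexpressor. These comparisons share their wild-type libraries.

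The selection set no condition on differences between overexpressors, and these were tested. It did require all 3 overexpressor means to lie on the same side of the wild type, which removed genes that were high or low in only some of them. How few of the selected genes differ among overexpressors is therefore partly fixed by the selection, and the counts below are given as a description. Of the 42 genes, 41 had enough counts for the edgeR fit of 34252 genes, and only Glyma.08G269200 did not. Most of the 21 lower genes entered through their wild-type counts. Glyma.16G206100, with 82 to 194 fragments in each overexpressor library, was among the exceptions.

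Glyma.01G064800 was the only one of the 41 to pass between overexpressors, and it did so in both comparisons with GmNFYA. This gene (chromosome 1, 9874292 to 9876668, plus strand) had no fragment in the wild type, stood at 2.92, 2.29 and 2.88 CPM with GmZF351 overexpressed and at 2.98, 3.31 and 3.34 CPM with GmZF392 overexpressed, and reached 0.645, 0.307 and 0.582 CPM in the GmNFYA overexpressor. The 3 GmNFYA libraries lay below the 6 others without overlap. It was lower in the GmNFYA overexpressor than in the GmZF351 overexpressor by a log2 difference of -2.43 (SE 0.31, edgeR quasi-likelihood test, adjusted p = 0.00229 and 1.96e-08 to 0.0143 over the alternatives). Against the GmZF392 overexpressor the log2 difference was -2.61 (SE 0.30, edgeR, adjusted p = 9.33e-04 and 5.15e-10 to 0.00751 over the alternatives). Between the GmZF392 and GmZF351 overexpressors it was 0.17, with a 95% interval from -0.39 to 0.74.

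Of the 20 higher genes tested, 0 passed between the GmZF392 and GmZF351 overexpressors with edgeR and 0 with the DESeq2 Wald test. Between GmNFYA and GmZF351 the edgeR count was 1 of 20, and between GmNFYA and GmZF392 it was 1 of 20. Among all tested genes, 0.4% (0.356% higher and 0.0438% lower), 1.1% (0.593% and 0.505%) and 1.06% (0.263% and 0.8%) passed in these comparisons. An unadjusted edgeR p under 0.05 was reached by 2, 4 and 5 of the 20 higher genes, and by 3290, 4328 and 3484 of the 34252 genes. With 20 genes, nothing is read from these counts against the shares over all genes. For the 20 higher genes tested, the estimated log2 difference lay within 1 unit of 0 for 19, 18 and 16 genes in these 3 comparisons, and the median 95% interval was 1.48, 1.48 and 1.53 log2 units wide. A gene that did not pass may still differ by any amount within its interval.

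A pair of other higher genes passed under an alternative but not with edgeR on all 12 libraries. Glyma.09G281800 (chromosome 9, 50121424 to 50123334, minus strand, LOC106794104) stood at 2.25, 2.13 and 3.09 CPM with GmZF351 overexpressed, 2.27, 1.46 and 1.83 CPM with GmZF392 overexpressed and 0.86, 0.972 and 0.727 CPM in the GmNFYA overexpressor, with 2 fragments in the wild type. The GmNFYA libraries were the lowest without overlap. The difference between GmNFYA and GmZF351 was -1.59 on the log2 scale (95% interval -2.36 to -0.81) and did not pass (edgeR, adjusted p = 0.0561, 0.00123 to 0.212 over the alternatives). It passed with the DESeq2 Wald test (adjusted p = 0.00123), with the 9 overexpressor libraries fitted alone (edgeR, 0.0343) and without wild-type library 1 (edgeR, 0.0294). Glyma.07G212400 (chromosome 7, 38714074 to 38715238, minus strand) stood at 0.259, 0.132 and 0 CPM in the wild type, 2.68, 2.77 and 3.09 CPM and 1.92, 1.74 and 1.08 CPM in the zinc finger overexpressors, and 2.63, 3.17 and 3.78 CPM in the GmNFYA overexpressor. Its GmZF392 libraries were the lowest of the 9. Its difference between GmNFYA and GmZF392 was 1.06 on the log2 scale (95% interval 0.31 to 1.80, edgeR, adjusted p = 0.263, 0.0438 to 0.653 over the alternatives), and it passed with the DESeq2 Wald test (adjusted p = 0.0438).

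Of the 21 lower genes, 0 passed between overexpressors, with edgeR or the DESeq2 Wald test. Over all tested genes, 0.4%, 1.1% and 1.06% passed with edgeR in the same 3 comparisons. An unadjusted edgeR p under 0.05 was reached by 3, 2 and 2 of the 21, and by 3290, 4328 and 3484 of the 34252 genes. Most of the 21 had too few overexpressor fragments for such a test. These counts were thus largely fixed in advance, and nothing is read from them. Depending on the pair, 6 or 7 of them had no fragment in either genotype, and the others had a median 95% interval 6.12, 4.95 and 6.11 log2 units wide. Most differences at these levels were not detectable. Glyma.16G206100, which had the most overexpressor fragments of the 21, was an exception. Its 95% intervals ran from -0.99 to 0.18 between GmZF392 and GmZF351, from -1.33 to -0.14 between GmNFYA and GmZF351 (edgeR, adjusted p = 0.282) and from -0.93 to 0.27 between GmNFYA and GmZF392. The lowest adjusted p of the lower genes was 0.141 (edgeR), for Glyma.20G158500 between GmNFYA and GmZF351 (log2 1.31, 95% interval 0.50 to 2.11).

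**Figure D3:**
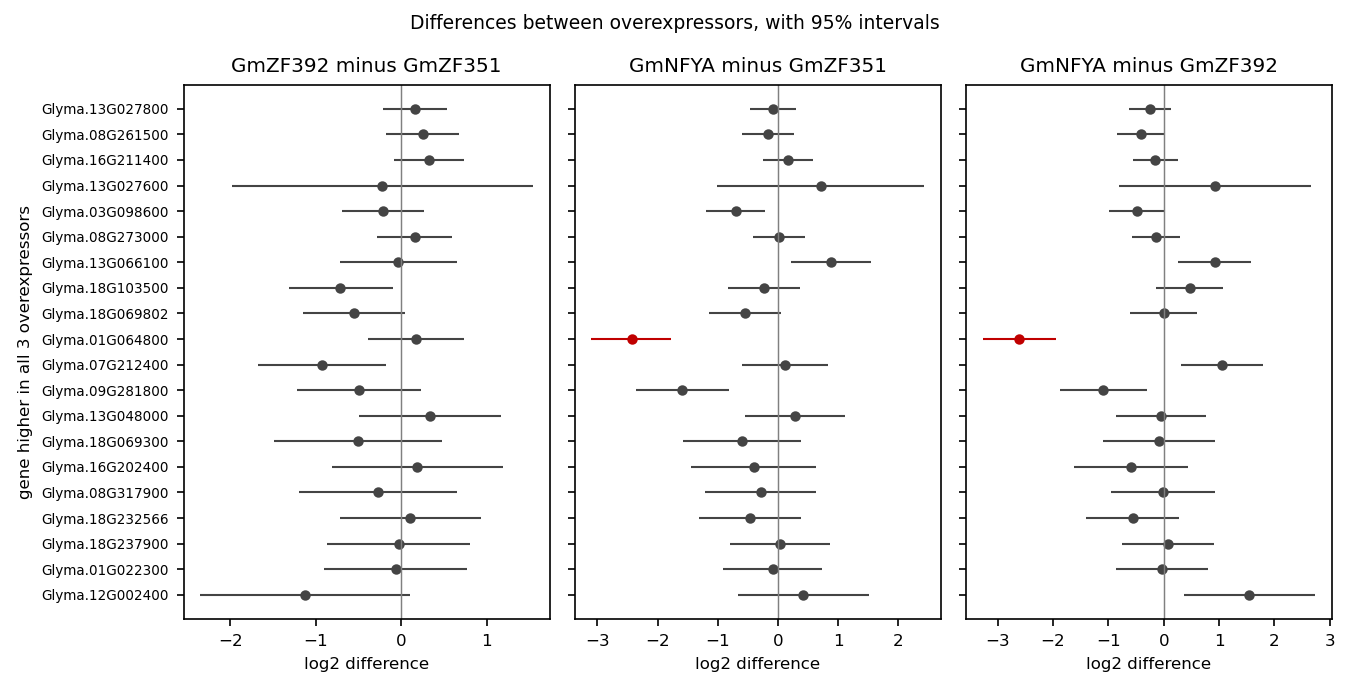
Log2 difference between each pair of overexpressors for the 20 tested genes higher in all 3, as points with 95% intervals from the edgeR fit; red marks an adjusted p under 0.05. Glyma.01G064800 is the only red point, at -2.43 and -2.61, and Glyma.13G027600 has the widest interval in each comparison.

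Position was not used in the selection, and it is described here for the 42 genes. Chromosome 18 held 13 of them, 5 higher and 8 lower, which is 31% of the genes against 5.06% of all genes in the table. Chromosome 13 held 6 (14.3% against 6.82%), chromosome 8 held 5 (11.9% against 6.86%), and chromosomes 3 and 16 held 4 each (9.52% against 4.7% and 4.01%). Chromosome 20 held 3, all lower. One lower gene, Glyma.U022200, lies on a scaffold, and 9 of the 20 chromosomes held none. No count of these positions was tested against chance.

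**Figure D4:**
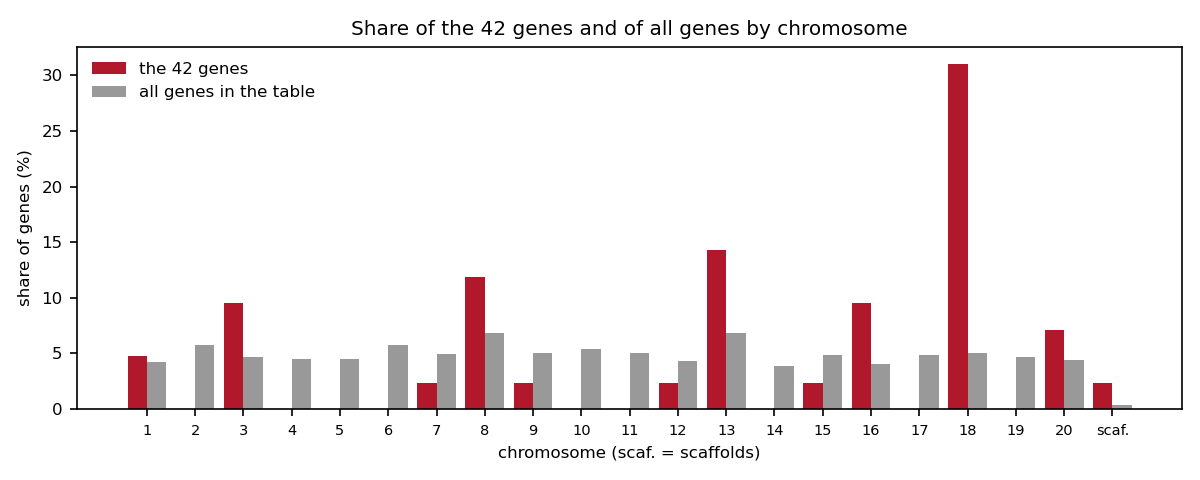
Share of the 42 genes (red) and of all 47095 genes (grey) on each chromosome, in percent. Chromosome 18 holds 31% of the 42 genes and 5.06% of all genes.

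Within chromosomes, part of the 42 genes lay in stretches and the others lay alone, among them all 5 on chromosome 8. Another of the 42 lay within 1000 kb of 22 genes (52.4%), whereas 6.47% of the other genes in the table had one of the 42 that close. Within 200 kb the shares were 14.3% (6 genes) and 1.92%. These 6 genes form 3 pairs. Glyma.13G027600 and Glyma.13G027800, both higher, lie 24.7 kb apart, and Glyma.18G069300 and Glyma.18G069802, both higher, 53.8 kb apart. In the third pair the directions differ: Glyma.16G202000, lower, ends 35.7 kb before CRK48, higher. Glyma.16G202000 (chromosome 16, 36562564 to 36564084, minus strand, LOC100781972) stood at 2.49, 1.9 and 2.07 CPM in the wild type and had 1 fragment over the 9 overexpressor libraries. So a gene seen almost only in the wild type and a gene seen almost only in the overexpressors lay close together.

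Genes of both directions shared stretches elsewhere too. With gaps of up to 1000 kb, 8 stretches held 22 of the 42 genes, and 5 of the 8 held both directions. The chromosome 16 stretch (36562564 to 37256386, 693.8 kb) held Glyma.16G202000 and Glyma.16G206100, both lower, and CRK48 and Glyma.16G211400, both higher. It also held 65 other tested genes. Of these, 5, 6 and 3 rose and 0 fell in the GmZF351, GmZF392 and GmNFYA overexpressors (edgeR, adjusted p under 0.05). Over all tested genes, 1.13%, 1.67% and 0.966% rose and 1.05%, 0.528% and 0.599% fell. The other stretches varied. In the chromosome 13 stretch that starts at 12719575, 1, 3 and 1 rose and 0 fell. In the chromosome 18 stretch that starts at 5435362, 2, 3 and 2 rose and 2, 0 and 0 fell. In the chromosome 18 stretch that starts at 52375369, 4, 2 and 1 rose and 1 fell in each overexpressor. In the chromosome 20 stretch 1, 2 and 2 rose and 2, 1 and 2 fell. In the chromosome 3 stretch 0 rose and 0, 1 and 1 fell. In the chromosome 18 stretch that starts at 9542101, 1 rose in each overexpressor and 2, 3 and 2 fell. On chromosome 18 there were 3 such stretches, from 5435362 to 6507566 with 4 of the 42 genes, from 9542101 to 11166228 with 3, and from 52375369 to 53584148, which holds CRK62, with 3. Over all 8 stretches, 337 other genes were tested, and 21 (6.23%), 23 (6.82%) and 16 (4.75%) differed from the wild type, against 2.05%, 2.08% and 1.45% of all tested genes outside the 42, in the overexpressors of GmZF351, GmZF392 and GmNFYA.

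Genes beside the 42 were not chosen by their own values, so their differences from the wild type could be tested. The nearest tested gene on each side gave 76 neighbours, at a median distance of 19.4 kb. In the GmZF351 overexpressor 6 rose and 4 fell, 13.2% of the 76, where 2.17% of all tested genes and 2.05% of those outside the 42 passed (edgeR, adjusted p under 0.05). In the GmZF392 overexpressor 5 rose and 2 fell, 9.21% against 2.2% and 2.08%. In the GmNFYA overexpressor 5 rose and 2 fell, 9.21% against 1.56% and 1.45%. Over all tested genes, 1.13% rose and 1.05% fell in the GmZF351 overexpressor, 1.67% and 0.528% in the GmZF392 overexpressor, and 0.966% and 0.599% in the GmNFYA overexpressor. The median log2 differences of the neighbours were 0.00, -0.05 and -0.01, next to 0.01, -0.01 and -0.01 over all tested genes. The median size of their differences, regardless of sign, was 0.23, 0.27 and 0.23 on the log2 scale, against 0.18, 0.19 and 0.20. The shares were smaller over wider windows, at 6.49%, 6.17% and 6.33% of 632 genes within 200 kb and 4.32%, 4.22% and 3.71% of 2132 genes within 1000 kb. Without wild-type library 1 the GmZF351 count fell to 6 of the neighbours, and the GmZF392 count was 11 with the DESeq2 Wald test.

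The neighbours named here are the 7 that passed in the same direction in each of these comparisons, which share the wild-type libraries. They are 9.21% of the neighbours, against 0.532% of the tested genes outside the 42 and 0.651% of all tested genes. Glyma.03G098800 (LOC100812337), 42.5 kb from the higher gene Glyma.03G098600, stood at 0.56 ± 0.146 CPM in the wild type and rose to 3.13 ± 0.283, 2.45 ± 0.13 and 2.82 ± 0.188 CPM in the overexpressors of GmZF351, GmZF392 and GmNFYA (SD, n = 3; edgeR, adjusted p = 1.32e-04, 5.67e-04 and 2.9e-04). Glyma.08G318000, 1.5 kb from the higher gene Glyma.08G317900, rose from 1.78 ± 0.51 to 5.17 ± 0.26, 5.14 ± 1.34 and 4.57 ± 0.467 CPM (edgeR, adjusted p = 0.00239, 0.00292 and 0.00828). Both moved in the direction of the gene beside them. Glyma.18G068800 (LOC100781840), near the higher pair on chromosome 18, rose too, from 13.4 ± 0.666 to 26.7 ± 5.63, 33.9 ± 7.02 and 34.6 ± 7.31 CPM (edgeR, adjusted p = 0.00459, 6.12e-04 and 5.88e-04). Glyma.03G069100 (LOC102668539), 92.1 kb from Glyma.03G068900, fell with it, from 2.59 ± 0.148 to 0.121 ± 0.135, 0.369 ± 0.172 and 0.0358 ± 0.0621 CPM (edgeR, adjusted p = 0.00284, 0.015 and 9.83e-04).

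The other 3 moved against the gene beside them. Glyma.03G066800 (LOC100792657), 122 kb from the lower gene Glyma.03G067100, rose from 7.5 ± 1.21 to 19 ± 4.02, 23.9 ± 2.47 and 18.8 ± 0.893 CPM (edgeR, adjusted p = 0.00102, 2.13e-04 and 0.00165). Glyma.18G232700, 22 kb from the higher gene Glyma.18G232566, fell from 100 ± 23.2 to 33.2 ± 10.8, 30.7 ± 8.38 and 24.2 ± 3.28 CPM (edgeR, adjusted p = 0.0115, 0.00371 and 0.00154). Glyma.16G206200, 4.01 kb from the lower gene Glyma.16G206100, rose from 0.0614 ± 0.0667 to 0.85 ± 0.424, 0.627 ± 0.262 and 0.749 ± 0.105 CPM (edgeR, adjusted p = 0.0169, 0.0493 and 0.032).

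**Figure D5:**
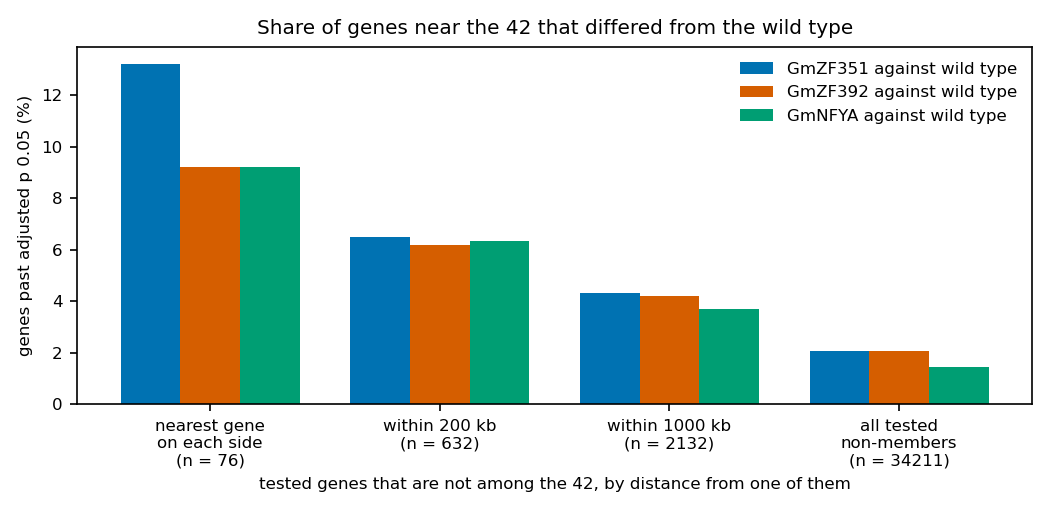
Share of tested genes outside the 42 that differed from the wild type (edgeR, adjusted p under 0.05), in percent, by distance from one of the 42 and for each overexpressor. The shares are 9.21% to 13.2% for the nearest genes and 1.45% to 2.08% for all tested genes outside the 42.

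Among the 20 chromosomes, chromosome 18 also had the largest share of other genes that passed against the wild type, in each overexpressor. Of its 1669 tested genes outside the 42, 3.06% differed in the GmZF351 overexpressor, 3.06% in the GmZF392 overexpressor and 2.34% in the GmNFYA overexpressor. On chromosome 13 the shares were 2.61%, 2.91% and 1.98% of 2374 genes, and on chromosome 19, which held none of the 42, 1.17%, 1.35% and 0.615% of 1627 genes. The shares did not follow the number of the 42 throughout. Chromosome 9, with 1 of the 42, had 2.83%, 2.89% and 1.75%, and chromosome 6, with 0, had 2.16%, 2.31% and 1.81%. Chromosome 16, with 4, had 1.93%, 2.01% and 1.37%, below the 2.05%, 2.08% and 1.45% of all tested genes outside the 42. These chromosome shares were not tested against one another.

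The gene models themselves were compared with the rest of the table, without a test. A RefSeq protein-coding gene was paired with 57.1% of the 42 genes, against 81.3% of all genes and 88.9% of the 34338 genes whose highest group mean reached 0.5 CPM. The higher and lower genes were paired equally often, 12 of 21 each. Models of 1 exon made up 38.1% of the higher and 14.3% of the lower genes, against 18.5% of all genes and 14.6% of those reaching 0.5 CPM. The median exon length was 1837 bases for the higher and 1040 bases for the lower genes, against 1732 bases in the table. Glyma.12G002400 overlaps another gene on the same strand, so its counts are uncertain; the others overlap no gene in the table.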

How the data were processed

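Counts are raw, whole paired-end fragments per gene, made by the authors with featureCounts 2.0.1 per the file headers and summed over the exons of the Wm82.a4.v1 annotation, with exon lengths in another column. The annotation is of Williams 82, whereas the plants are Jack, and the recorded command gives no option for strand or for fragments that align to several genes. HISAT2 and DESeq2 are also named, without versions, in the submitters' processing notes. Libraries held 17809547 to 22652420 counts, and a count of 0 allows up to 3 counts, or 0.132 to 0.168 CPM in a library (counting error only).

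CPM values are counts per 1000000 of the column sum. Tests used R 4.3.3 and edgeR 4.0.16 (TMM factors, filterByExpr, minimum count 10 and minimum total 15, robust quasi-likelihood F-test, all 12 libraries in 1 fit with 1 coefficient per genotype). P-values were adjusted by Benjamini-Hochberg over 34252 genes at a threshold of 0.05. Intervals are 95% t intervals from the fitted log2 difference and its SE. Alternatives were DESeq2 1.42.0 on the same genes, DESeq2 size factors, no filter, the replicate number as a block, the overexpressor libraries alone, each library left out, and other settings of the selection rule. RefSeq genes (Glycine_max_v4.0) were paired where spans overlapped by at least 50% of their union. GmZF351 and GmZF392 were located from knowledge of the study.

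Genes named were the 10 of highest group mean CPM in each direction, those with a symbol, those that passed between overexpressors, those beside the threshold, pairs within 200 kb, and up to 6 neighbours that passed in all 3 comparisons. A few others, such as the last of those neighbours, were named after their values were seen. The genes and lists were chosen with earlier results of these data known. No replicate pair agreed within sampling noise. Sequences were not used here.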

Additional observations from a re-analysis of the deposited data

Results flagged for a closer look

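Glyma.01G064800 was flagged because its difference from the wild type was not the same size in all overexpressors, by a test of the difference itself. It was lower in the GmNFYA overexpressor than in the GmZF351 overexpressor by a log2 difference of -2.43 (edgeR, adjusted p = 0.00229) and than in the GmZF392 overexpressor by -2.61 (edgeR, adjusted p = 9.33e-04), with all 3 GmNFYA libraries below all 6 others.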

How the results depend on the processing

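The number of selected genes, 42, was 13 with 0.5 CPM added to each mean, 84 at a 4-fold and 23 at a 16-fold threshold, and 26 with a highest group mean of 2 CPM or more. Without 1 library it was 40 to 47. With TMM-scaled CPM it was again 42, and 41 of them were the same genes. The genes with another of the 42 close by numbered 22 in a 1000 kb window, against 6 in 200 kb. Selected genes that passed between GmNFYA and GmZF351 numbered 2 with the DESeq2 Wald test, 2 with the overexpressor libraries alone, and 1 to 2 without 1 library. Between GmNFYA and GmZF392 they numbered 2 with the DESeq2 Wald test and 1 without any 1 library. Same-numbered libraries did not pair (correlations of their deviations from the group means from -0.498 to 0.418), and with the replicate number as a block the counts of selected genes were 0, 1 and 1, as without it, and those of neighbours 9, 7 and 8. Neighbours that passed numbered 41, 39 and 40 within 200 kb and 92, 90 and 79 within 1000 kb in the GmZF351, GmZF392 and GmNFYA overexpressors, since the windows hold more genes; both windows were chosen after seeing the data. They numbered 11 with the DESeq2 Wald test in the GmZF392 overexpressor, and 6 to 10, 5 to 7 and 6 to 9 without 1 library. No value changed direction. Low counts limit the comparison of overexpressors for most of the 21 lower genes. The cause of these changes was not tested.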

Other observations

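Glyma.13G027600 varied among the libraries of each overexpressor as well as between them. It was at 0.426 CPM in GmZF351 library 2 and 12.5 CPM in GmZF351 library 1, and at 1.13 and 7.77 CPM in GmZF392 libraries 3 and 1. In the GmNFYA overexpressor library 1 was the highest, at 15.5 CPM. GmZF351 library 2, GmZF392 library 3 and GmNFYA library 1 were also the least like the others of their genotype: the Spearman correlations over tested genes of GmZF351 library 2 with libraries 1 and 3 were 0.9603 and 0.9738, against 0.9855 between those, and of GmZF392 library 3 with libraries 1 and 2 were 0.9771 and 0.9716, against 0.9908. For GmNFYA library 1 they were 0.9771 and 0.9744, against 0.9947. The part of library quality in this spread was not tested. In the wild type, library 1 was the least like the others, at 0.9793 and 0.9788 against 0.9913. The selection rule kept 40 of the 42 genes without GmZF351 library 2, 41 without GmZF392 library 3, 40 without GmNFYA library 1 and 39 without wild-type library 1.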
